A study of Mus musculus with 8 samples.

Results

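The replication-dependent histone genes were followed on 8 Agilent arrays hybridised with RNA of pro-B cells from mice, B cell precursors that normally rearrange their heavy chain genes. Members were all probes, control spots left out, whose gene name in the scanner files starts with Hist1h, Hist2h, Hist3h or Hist4h. They came to 51 probes of 39429 on the array, for 47 gene names of 31829. By class, 6 probes were for the linker histone H1, 15 for H2A, 11 for H2B, 8 for H3 and 11 for H4. A filter on dim probes kept 28187 probes of the array and 50 of the 51 members. The member left out was Hist1h1d, a linker histone, which was well above background on 0 of the 8 arrays. Of the kept members, Hist3h2bb was well above background on 5 arrays, Hist1h2bp on 7 and the other 48 on all 8.

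There were 4 groups of 2 arrays, numbered 1 and 2 and described in the labels as individual sorts. All cells came from BALB/c Rag1 null mice, which lack a subunit of the recombinase and hold B cells at the pro-B stage. The adult groups held bone marrow (BM) pro-B cells, from 2 mice per sort, that had received either a retrovirus carrying Lin28b or its empty vector, pMIG. The fetal groups held fetal liver (FL) pro-B cells, from embryos at day 16 of gestation pooled within a sort (8 on average), that had received either a let-7b retrovirus or its empty vector, MSCV. In all groups the cells grew on OP9 stromal cells with IL-7, and GFP+ cells were sorted 4 days after transduction. Lin28b binds let-7 precursors and keeps them from maturing, and let-7b is one of these microRNAs; the design thus adds a fetal-type regulator to adult cells and its opponent to fetal cells. The empty-vector groups also allow FL to be set against BM, but tissue, age, vector and slide differ together there and cannot be told apart.

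Replication-dependent histones package newly made DNA: H2A, H2B, H3 and H4 form the nucleosome core, and H1 binds the linker DNA between nucleosomes. Their genes lie in clusters, lack introns and are switched on as cells enter S phase, under NPAT at histone locus bodies. Their messenger RNAs are the main animal mRNAs that end in a conserved stem-loop instead of a poly(A) tail; the stem-loop is bound by SLBP, cut downstream with help of the U7 particle, and the RNA is degraded once replication stops. Replication-independent variants such as H2A.Z and H3.3 are made through the cell cycle from ordinary polyadenylated RNAs. Of the 47 member names, 34 were on chromosome 13, where the large Hist1 cluster lies, 9 on chromosome 3 (Hist2), 3 on chromosome 11 (Hist3) and 1 on chromosome 6 (Hist4h4).

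Many members are near copies of each other, so a probe could bind the RNA of several genes. Of the 51 probes, 10 were at least 80% identical to another member probe over an overlap of at least 40 bases, which gave 21 such pairs. The array's own annotation listed several RefSeq transcripts for 13 probes. Together this covered at least 14 of the 51 probes, and the results do not separate these genes from their near copies. The Hist2h2ac probe was not counted, although its position (chr3:96049834-96049896) overlaps that of the Hist2h2aa2 probe (chr3:96049837-96049896). The Hist2h2aa1 probe lies close by on the same strand (chr3:96049949-96050008). These Hist2 probes may thus not read separate genes. The clearest case was a group of H2A probes, shown here because they read the same 60-base window at the end of the coding sequence. Capitals mark each base that differs from Hist1h2af, and every run ends in a stop codon (taa or tga).
Hist1h2af: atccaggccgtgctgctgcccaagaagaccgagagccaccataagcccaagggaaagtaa
Hist1h2an: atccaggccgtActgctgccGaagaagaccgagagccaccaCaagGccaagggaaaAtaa
Hist1h2ak: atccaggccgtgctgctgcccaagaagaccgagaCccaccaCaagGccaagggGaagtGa
Hist2h2aa2: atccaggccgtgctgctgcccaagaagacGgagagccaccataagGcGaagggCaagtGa
In the array design's build, mm9, these lie at chr13:23626113-23626172 (plus strand), chr13:21878695-21878754 (minus), chr13:21845304-21845363 (minus) and chr3:96049837-96049896 (plus). Each of the other probes differed from Hist1h2af at 5 of 60 positions. Counted from 1 at the 5′ end, C46G was common to all 3 of them. The Hist2h2aa2 probe lies on another chromosome than the other 3 and was no more distant from Hist1h2af than its neighbours were.

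Among the H4 genes, whose coding sequences differ mostly at silent positions, Hist1h4c and Hist1h4k had probes in the same window (mm9 chr13:23790223-23790282 and chr13:21842279-21842338, both on the minus strand). They are shown as the H4 pair that shares a whole window, with capitals for the bases that differ from Hist1h4c.
Hist1h4c: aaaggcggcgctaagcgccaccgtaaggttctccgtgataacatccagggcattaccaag
Hist1h4k: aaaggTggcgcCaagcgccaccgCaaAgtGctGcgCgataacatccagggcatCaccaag
These differ at 8 of 60 positions. The Hist1h4d and Hist1h4j probes overlap the same stretch at an offset, with 85.4% to 95.8% identity among the 4 probes. The 2 H4 probes with the same window are read below as separate measurements of RNAs that each of them may partly share.

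Some members have probes that reach past the coding sequence into the stem-loop. An inverted repeat with a 6-base stem and a 4-base loop was found in 7 of the 51 member probes (13.7%), against 726 of all 39429 probes (1.84%). In 4 members the repeat had the same 16 letters, and no other probe of the array held them. They are shown with up to 5 bases on each side and the repeat in capitals, because this element sets these mRNAs apart from others.
Hist2h2aa1: aaaaaGGCTCTTTTCAGAGCCaccca
Hist2h2bb: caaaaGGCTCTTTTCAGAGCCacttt
Hist1h3a: ccaaaGGCTCTTTTCAGAGCCaca
Hist1h3i: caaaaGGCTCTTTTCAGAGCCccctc
Hist1h3g: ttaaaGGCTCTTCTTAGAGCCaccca
Hist1h3g kept the stem with another loop. The repeats in the Hist1h3f and Hist4h4 probes had other letters and were not of this kind. A poly(A) signal hexamer, AATAAA or ATTAAA, was in 4 member probes (7.84%) against 16.7% of all probes.

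The transgene check came first. A probe for Lin28b read 0.35 and 0.07 on the BM arrays labelled Lin28b and -9.16 and -8.85 on their controls, as levels, where a level is the log2 of the processed signal minus the log2 of that array's 75th percentile. Another kept Lin28b probe differed by 0.64 and was not called (limma adjusted p = 1). The 4 BM arrays lay on 1 slide and the FL arrays on 2 others, each with 1 empty-vector and 1 let-7b array, so in FL the replicate number is also the slide. The 75th percentile of signal was 1925 to 2234 on BM arrays, 467.1 to 487.9 on 3 of the FL arrays and 271.5 on FL empty vector replicate 2. That last array had the lowest 75th percentile and the highest median of member signals (4527). Both arrays of the second FL slide had fewer probes well above background (56.1% and 56.7%) than the other 6 (64.2% to 68.5%). Medians are given with and without FL empty vector replicate 2, as are several genes whose tissue difference moved by over 1.5 times without it. The median SD between replicates of a group was 0.075 to 0.283 on the log2 scale over all probes. For the histone members it was 0.054 with Lin28b, 0.082 in BM empty vector, 0.697 in FL empty vector and 0.275 with let-7b. Pro-B markers were measured as the labels state: all 14 matched, Cd79a and Vpreb1 among them, were well above background on all 8 arrays.

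Before any scaling, histone signals were about as bright on the dim FL arrays as on the BM arrays. The median processed signal over the 51 members was 3163 and 3083 with Lin28b, 3331 and 3209 in BM empty vector, 2729 and 4527 in FL empty vector and 3037 and 4081 with let-7b. The median over all probes was 93.1 to 110.3 on BM arrays and 22.27 to 47.54 on FL arrays. Thus the whole-array signal was lower on every FL array than on any BM array, while the members' medians overlapped between the tissues. When kept probes were cut into 10 equal classes (deciles) of mean signal, 23 of the 50 kept members fell in the brightest, decile 10.

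**Figure D1:**
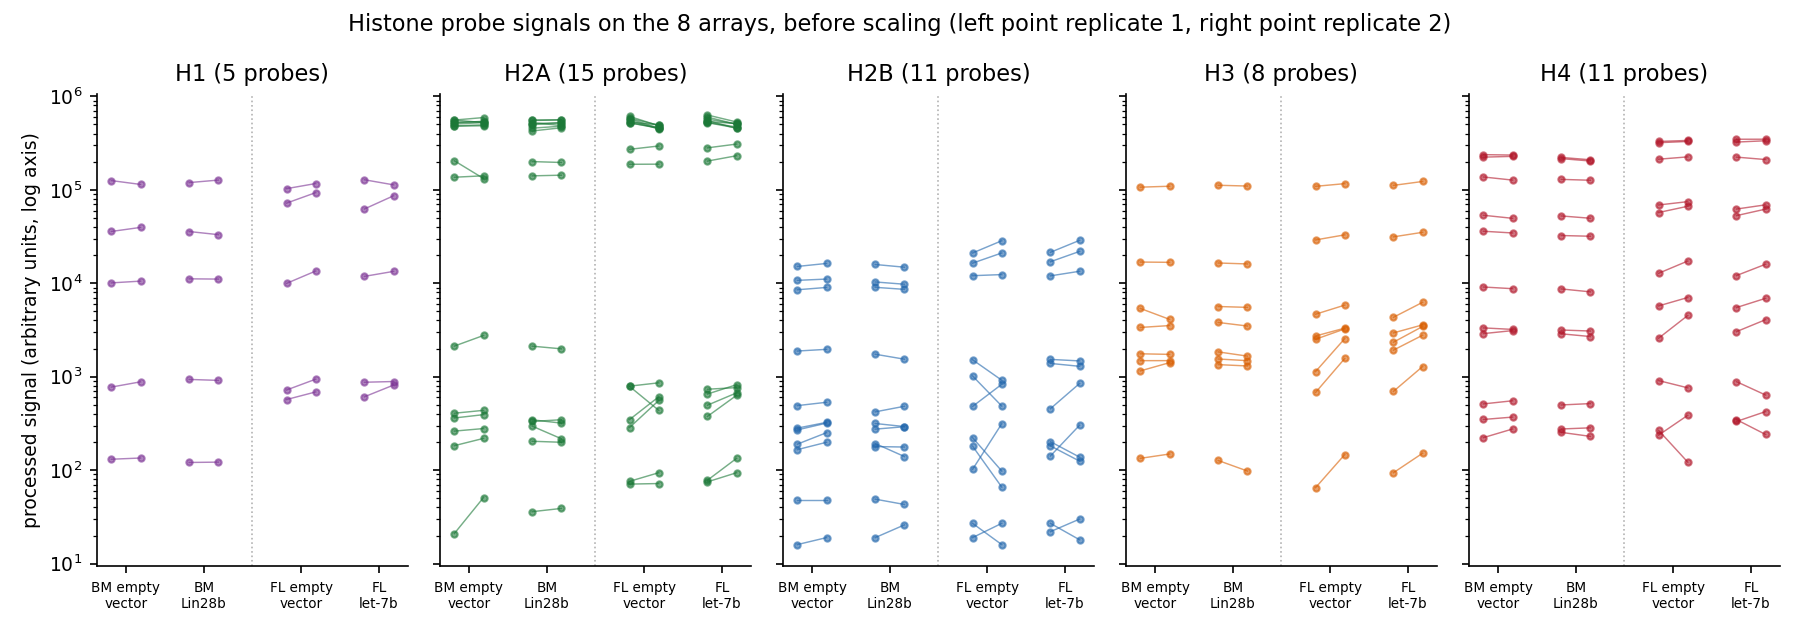
Processed signal (arbitrary units, log axis) of the 50 kept histone probes on the 8 arrays before scaling, 1 panel per class, with a line joining the 2 replicates of each group for each probe. A cluster of H2A probes sits together at the top of the scale on all arrays, and the bright probes of each class lie at similar heights in BM and FL.

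The brightest H2A probes were at the limit of the scanner. The probes for Hist1h2an, Hist1h2ah, Hist1h2ak (1 of its 2 probes), Hist1h2ag, Hist1h2af and Hist2h2ac were saturated on both arrays of the first FL slide, and none was on the second. Hist1h2ah was also saturated on all 4 BM arrays, so its differences are not read and their sign has no meaning. Hist1h2ag and the same Hist1h2ak probe were also saturated on BM empty vector replicate 2. A saturated spot has no measured upper end, so values are also given for the 44 kept members that were never flagged as saturated. Among them Hist2h2aa2 read as high as flagged probes, so this set is not fully free of the limit.

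With Lin28b in adult cells, histone RNAs differed little. Of the 50 members, 0 passed the test in either direction (limma, Benjamini-Hochberg adjusted p below 0.05 over 28187 probes), against 0.00355% of all probes called higher, which is the Lin28b probe with the rise given above, and 0% called lower. At an unadjusted p below 0.05 there was 1 member of 50, and 962 of the 28187 probes. The median difference was -0.14, against -0.04 over all probes, and 44 of the 50 differences were below 0, as were 16995 of the 28187 probes. In 29 members (58%) both Lin28b arrays read below both controls, where 33.3% of all probes did so, and in 1 member (Hist1h1c) both read above, where 17.6% did. These differences were small: they ran from -0.44 to 0.26, and their standard errors had a median of 0.34.

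All 11 H4 probes were below 0 with Lin28b, with a median of -0.18. Several of these probes are near copies or read the same gene, so their signs are not separate observations. The class medians were -0.04 for H1, -0.14 for H2A, -0.15 for H2B and -0.05 for H3. Hist1h2bc, a core histone H2B, had the smallest p: its levels were -0.36 and -0.43 with Lin28b and -0.03 and -0.12 without, a difference of -0.32 ± 0.12 (limma standard error; unadjusted p = 0.0405, adjusted p = 1). The groups did not overlap, but the difference did not pass the test over all probes. The lowest values were -0.44 ± 0.49 for 1 of the 2 Hist2h4 probes, -0.43 ± 0.33 for Hist2h2aa1 and -0.43 ± 0.65 for Hist2h3c2. The highest were 0.26 ± 0.47 for Hist3h2bb, 0.18 ± 0.39 for Hist1h2ab and 0.16 ± 0.43 for Hist1h3c. None of these passed the test. With quantile scaling the members' median was -0.10 and without scaling -0.05, each at 0 calls. Stromal markers, which the OP9 layer would bring, had a median difference of 0.95 over 16 kept of 18. Their log2 summed level was 5.41 to 5.95 with Lin28b and 4.86 to 5.01 without, 0 of them were called, Lum and Postn were not well above background on any array, and their part in the histone values was not tested.

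With let-7b in fetal cells, 0 of 50 histone members passed the test in either direction, against 0.0177% of all probes called higher and 0.0071% called lower. There was 1 member of 50 at an unadjusted p below 0.05, and 2704 of the 28187 probes. The median difference was -0.34 (-0.14 with quantile scaling), against -0.05 over all probes, with 46 members below 0 and 4 above. Of all 28187 probes, 16097 were below 0. The slides differed: the median was 0.04 on the first slide (replicate 1) and -0.72 on the second (replicate 2). Without FL empty vector replicate 2 it was 0.14, so the sign of the median rested on that array. Without scaling between arrays the median turned to 0.06, while that of all probes was 0.34, and the slides then gave 0.05 and 0.06. The median unscaled difference was thus near 0 on both slides, although single members differed, as Hist3h2ba did on the second slide (486 with empty vector, 1293 with let-7b). On that slide the 75th percentile was 271.5 with empty vector and 467.1 with let-7b, and its part in the scaled values was not tested.

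In 5 members (10%) both let-7b arrays read below both controls, where 18.2% of all probes did so. These were Hist1h2af, Hist1h2ag and Hist2h2ac, whose probes were saturated on the first slide, with Hist1h2bp and 1 of the 2 Hist1h4i probes. In 1 member, Hist3h2ba, both read above, where 11.7% of all probes did. Hist3h2ba is an H2B gene of the small Hist3 cluster. Its levels were 1.51 and 1.47 with let-7b and 1.07 and 0.84 with empty vector, a difference of 0.53 ± 0.16 (unadjusted p = 0.0168, limma adjusted p = 0.398), and of 0.43 and 0.63 on the separate slides. It was the member with the smallest p and it did not pass over all probes. The next highest differences were 0.29 ± 0.20 for Hist1h4h and 0.21 ± 0.27 for Hist2h2be. The lowest were -0.57 ± 0.33 for Hist2h2aa1, -0.56 ± 0.41 for the linker histone Hist1h1e and -0.54 ± 0.24 for Hist1h4i. The groups overlapped for Hist2h2aa1 and Hist1h1e. Stromal markers had a median difference of 0.83 here (log2 summed level 4.25 to 4.62 with let-7b and 3.73 to 4.14 without, 0 called of 16 kept), and their part was not tested.

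Between the tissues, nearly all histone members were higher in fetal liver relative to the rest of the array. FL minus BM with empty vector had a median of 2.66 over the 50 members and of 0.48 over all probes. The test called 48 of the 50 members higher and 0 lower, where 39.2% of all probes were called higher and 19.7% lower. Of the 44 never saturated, 42 were called higher and 0 lower. In all 50 members both FL arrays read above both BM arrays, which 53.8% of all probes did. Over all probes, 28.8% had both FL arrays below. The counts over 50 hold the saturated H2A probes, which read about alike in both tissues before scaling, so their scaled differences follow from the scaling. In these bulk samples, fewer cells of a type and less RNA per cell cannot be told apart. Between groups of 2 an exact permutation test could not go below p = 0.333, and limma's calls use a spread estimated with help of all probes. The median difference was 2.23 between the arrays numbered 1 and 3.44 between those numbered 2, and 2.19 without FL empty vector replicate 2, with 44 members called.

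**Figure D2:**
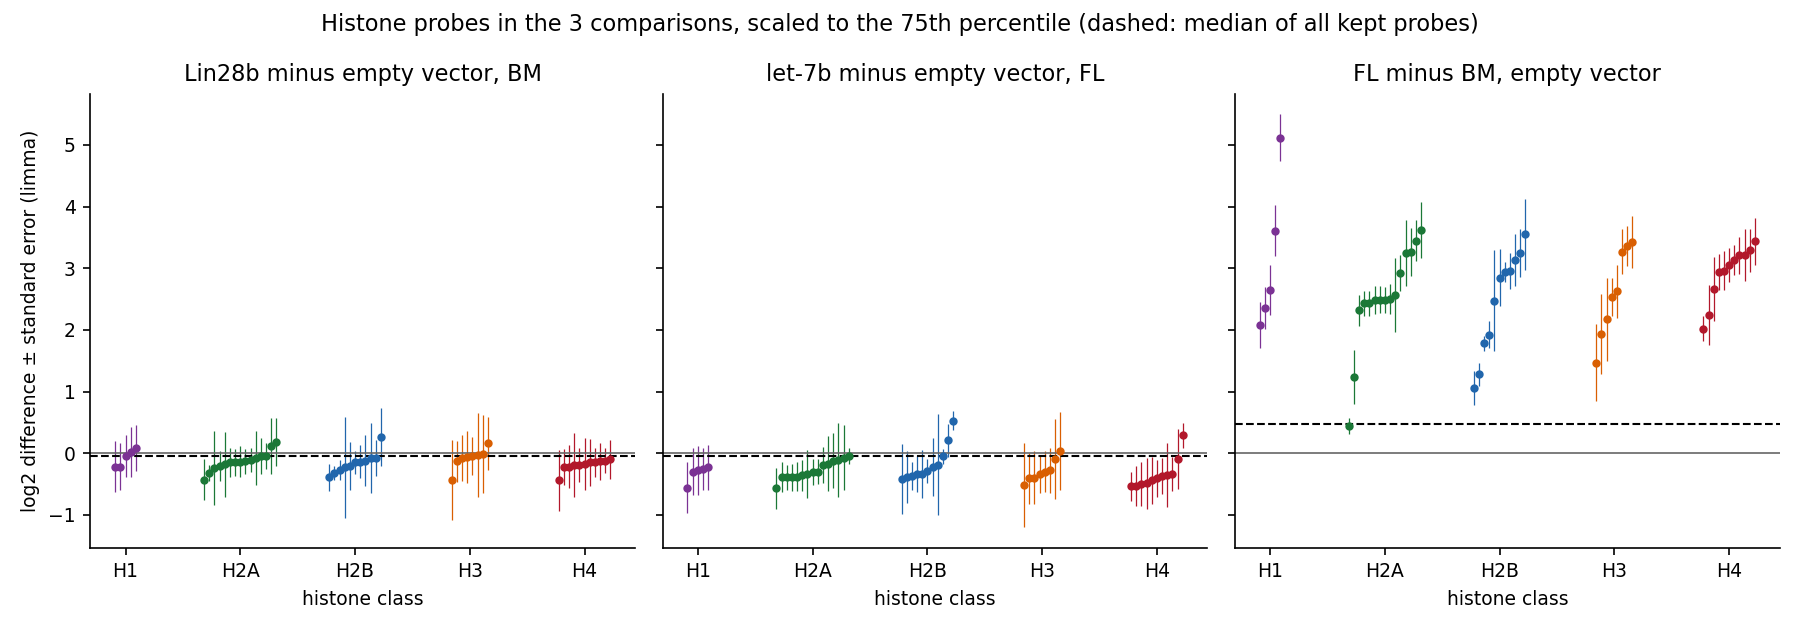
log2 difference of each kept histone probe with its limma standard error in the 3 comparisons (75th percentile scaling), grouped by class, with a dashed line at the median of all 28187 kept probes. With Lin28b and let-7b the probes lie near 0, and in FL against BM they lie between 0.44 and 5.12 with nearly all above the dashed line, while without scaling 17 of the 50 fall below 0.

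The size of this difference depended on the scaling, and for many members so did its sign. The FL arrays were dimmer, so without scaling the median of all probes was -2.01 and that of the histone members 0.18, with 13 members called higher and 4 lower, where 1.68% of all probes were called higher and 71.3% lower. With quantile scaling, which gives all arrays the same distribution, the median of all probes was 0 and that of the members 2.00. It called 36 members higher and 0 lower, where 24.5% of all probes were called higher and 27.2% lower. The members' median minus that of all probes was 2.18 with the 75th percentile, 2.00 with quantiles and 2.19 without scaling. The 75th percentile scaling shifts all probes of an array by the same amount, so the first and last values match by construction. The same holds for the excess values that follow. For the 44 members never saturated, the medians were 2.93, 2.11 and 0.45 under these 3 scalings, and their excess over all probes was 2.45, 2.11 and 2.46. For H2A the excess was 2.01, 0.44 and 2.02, so quantile scaling reduced it.

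**Figure D3:**
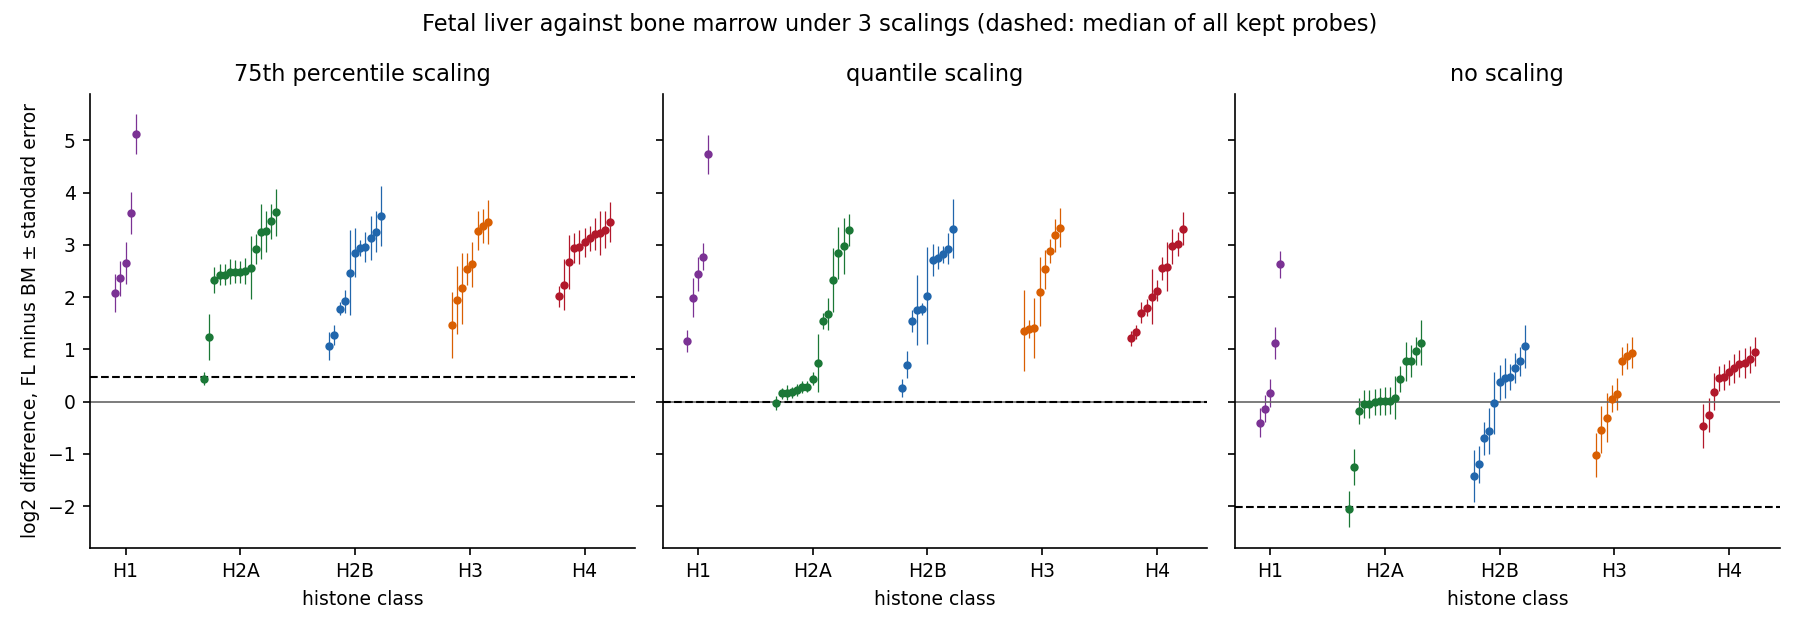
log2 difference of FL minus BM with empty vector, with limma standard errors, for each kept histone probe by class under 3 ways of scaling the arrays; the dashed line is the median of all kept probes. Quantile scaling brings bright probes nearer to the dashed line, the H2A probes most (class median 0.44), and without scaling 0 falls in the middle of the histone probes.

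Among linker histones, all 5 kept probes were called higher in FL after 75th percentile scaling, with a median of 2.65 that was 0.17 without scaling. Hist1h1t, the testis-type linker histone, had the largest difference of all members. Its processed signals were 131 and 135 in BM empty vector, 121 and 122 with Lin28b, 721 and 942 in FL empty vector and 873 and 889 with let-7b. All 4 FL arrays thus exceeded all 4 BM arrays in signal, on arrays that were dimmer as a whole. The difference was 5.12 ± 0.38 (34.7-fold; limma adjusted p = 0.000647), and 4.50 without FL empty vector replicate 2, 4.73 with quantile scaling and 2.63 without scaling, all called. Hist1h1e followed with 3.61 ± 0.41 (adjusted p = 0.00132), and 3.0 without FL empty vector replicate 2. Its signals were 35844 and 39600 in BM empty vector and 72022 and 93322 in FL empty vector, and it was also called without scaling (1.12).

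For the other linker histones the unscaled difference was not called. Hist1h1b read 125508 and 114207 in BM empty vector and 102906 and 116729 in FL empty vector. These signals overlapped, and the difference was 2.36 ± 0.34 scaled (adjusted p = 0.00263) and -0.13 without scaling. Hist1h1c, the linker histone H1.2, had signals of 775 and 882 in BM and 570 and 688 in FL, both below the BM signals, which gave 2.08 ± 0.37 scaled (adjusted p = 0.00556) and -0.40 without scaling. Hist1h1a lay between, at 2.65 scaled and 0.17 without scaling.

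Of the 15 H2A probes, 14 were called higher in FL, with a median of 2.49, but this class was the most affected by the scanner's limit. Of the 9 never saturated, 8 were called higher. With quantile scaling its median fell to 0.44 and 7 probes were called, and for the 9 never saturated the medians were 2.92 scaled by the 75th percentile, 1.68 with quantiles and 0.44 without scaling. Of the 4 probes of the shared window printed above, 3 were saturated in FL empty vector replicate 1, and their scaled differences (2.49 each) are not read further. Hist2h2aa2 was never flagged as saturated and had 2.43, with 0.16 under quantile scaling and -0.05 without scaling. On FL empty vector replicate 1 it read 575356, above the flagged Hist1h2ag at 520552, so its difference is not read further either. Away from the limit, Hist2h2aa1, whose probe spans the stem-loop, had signals of 407 and 437 in BM empty vector and 793 and 861 in FL empty vector. That was 3.45 ± 0.33 scaled (adjusted p = 0.000924), 3.28 with quantiles and 0.97 without scaling, and it was called under all 3. Hist1h2ac was dim, at 21 and 51 in BM and 71 and 72 in FL, and its difference was 3.62 ± 0.45 (adjusted p = 0.00173). Hist1h2aa, a testis-type H2A, had 362 and 393 in BM and 286 and 557 in FL, signals that overlapped, and a scaled difference of 2.56 ± 0.60 (adjusted p = 0.0136) that was 0.08 without scaling and 1.66 without FL empty vector replicate 2.

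The lowest H2A differences belonged to 2 probes with a GC content of 35.0%. The other kept members at this GC content, Hist1h1c, Hist1h2bc and Hist3h2ba, had larger differences of 2.08, 1.78 and 2.94. Hist3h2a had the smallest difference of all members. It read 2127 and 2766 in BM empty vector and 788 and 437 in FL empty vector, so that it was 0.44 ± 0.13 scaled (adjusted p = 0.035), and -2.05 without scaling. Its difference was near that of the typical probe under both scalings (0.48 and -2.01). Hist1h2ae, at 1.24 ± 0.44, did not pass the test (adjusted p = 0.0526), was -1.25 without scaling and was 0.66 without FL empty vector replicate 2. Hist3h2a lost its call without that array (0.44, adjusted p = 0.0605).

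All 11 H2B probes were called higher in FL, with a median of 2.85, 7 of them were called with quantile scaling (median 2.03), and without scaling 2 were called higher and 2 lower (median 0.37). Hist1h2bb had signals of 282 and 325 in BM empty vector and 481 and 830 in FL empty vector, a difference of 3.55 ± 0.57 (adjusted p = 0.00378), or 2.73 without FL empty vector replicate 2. Hist1h2bm, whose probe lists 4 transcripts, had 15139 and 16298 in BM and 21079 and 28511 in FL, a difference of 3.13 ± 0.42 (adjusted p = 0.00212), or 2.49 without that array. For both, FL signals exceeded BM signals before scaling, by 1.06 and 0.64 on the log2 scale, of which the first was called. Hist1h2ba, the testis-type H2B, had 8524 and 9022 in BM and 12054 and 12389 in FL, and 2.96 ± 0.29 scaled (adjusted p = 0.000985).

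Other H2B members lost signal in FL. Hist2h2be read 270 and 319 in BM empty vector and 181 and 66 in FL empty vector, which was 1.06 ± 0.27 scaled (adjusted p = 0.0176) and -1.42 without scaling. Hist1h2bc read 1884 and 1964 in BM and 1520 and 918 in FL, with 1.78 ± 0.12 scaled (adjusted p = 0.00059) and -0.70 without scaling. Hist1h2bp had 1.28 ± 0.19 (adjusted p = 0.0031) and -1.20 without scaling. For these 3 the direction against BM therefore turned with the scaling, although each stayed above the median of all probes under both. Of the Hist3 cluster, Hist3h2ba had a difference of 2.94 ± 0.16 (adjusted p = 0.000466, the smallest of the members) and the dim Hist3h2bb one of 2.85 ± 0.47 (adjusted p = 0.00423; 2.17 without FL empty vector replicate 2), against the 0.44 of their neighbour Hist3h2a.

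Of the 8 H3 probes, 7 were called higher, with a median of 2.59 that was 0.11 without scaling, where 3 were below 0. Hist1h3f had the largest difference, with signals of 1486 and 1487 in BM empty vector and 2518 and 3250 in FL empty vector, 3.43 ± 0.42 scaled (adjusted p = 0.00163), 0.94 without scaling and 2.83 without FL empty vector replicate 2, all called. Hist1h3d read 106730 and 109219 in BM and 108988 and 116399 in FL. Its signals barely moved, by 0.06 without scaling, and its scaled difference was 2.54 ± 0.31 (adjusted p = 0.00156). Hist1h3g, the member with the other stem-loop, read 3369 and 3527 in BM and 1135 and 2559 in FL. It did not pass the test (1.47 ± 0.63, adjusted p = 0.0911), its FL replicates differed more than 2-fold in signal, and it was -1.02 without scaling and 0.46 without FL empty vector replicate 2.

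H4 had the highest class median with this scaling, 3.05, and all 11 probes were called higher; without scaling the median was 0.56. Hist1h4c had signals of 3331 and 3209 in BM empty vector and 5724 and 7043 in FL empty vector, a difference of 3.44 ± 0.38 (adjusted p = 0.00124) that was 0.96 without scaling and called under both. The Hist1h4k probe in the same window had a scaled difference of 3.29. Hist4h4, the single gene on chromosome 6, had 53416 and 49550 in BM and 68818 and 74721 in FL, and 2.96 ± 0.32 scaled (adjusted p = 0.00119). Hist1h4h was 1 of the 2 H4 probes below 0 without scaling, with 223 and 276 in BM and 267 and 122 in FL: its difference was 2.02 ± 0.20 scaled (adjusted p = 0.00104) and -0.46 without scaling. For the 4 genes with 2 probes, the scaled differences of both probes had the same sign: 2.92 and 2.49 for Hist1h2ak, 3.13 and 2.67 for Hist1h4i, 3.29 and 2.94 for Hist1h4k, and 3.05 and 2.24 for Hist2h4.

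The histone difference was also set against that of all probes in the same decile of mean signal. Over all probes the median tissue difference was 1.43 in decile 1, the dimmest, between -0.04 and 0.11 in deciles 6 to 9 and 0.70 in decile 10. In each decile that held members, their median was higher than that of all its probes. It was 2.94 in decile 10 (23 members), 2.67 in decile 9 (3), 2.52 in decile 8 (4), 2.17 in decile 7 (5), 3.35 in decile 6 (6) and 1.93 in decile 5 (6). Deciles 2 and 3, with 1 and 2 members, had 2.85 and 2.45. The excess was thus present in dim and in bright deciles. Decile 10 spans mean signals of 9870 to 559903 and holds the probes at the scanner's limit. Its members are therefore not closely matched in brightness to its other probes.

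**Figure D4:**
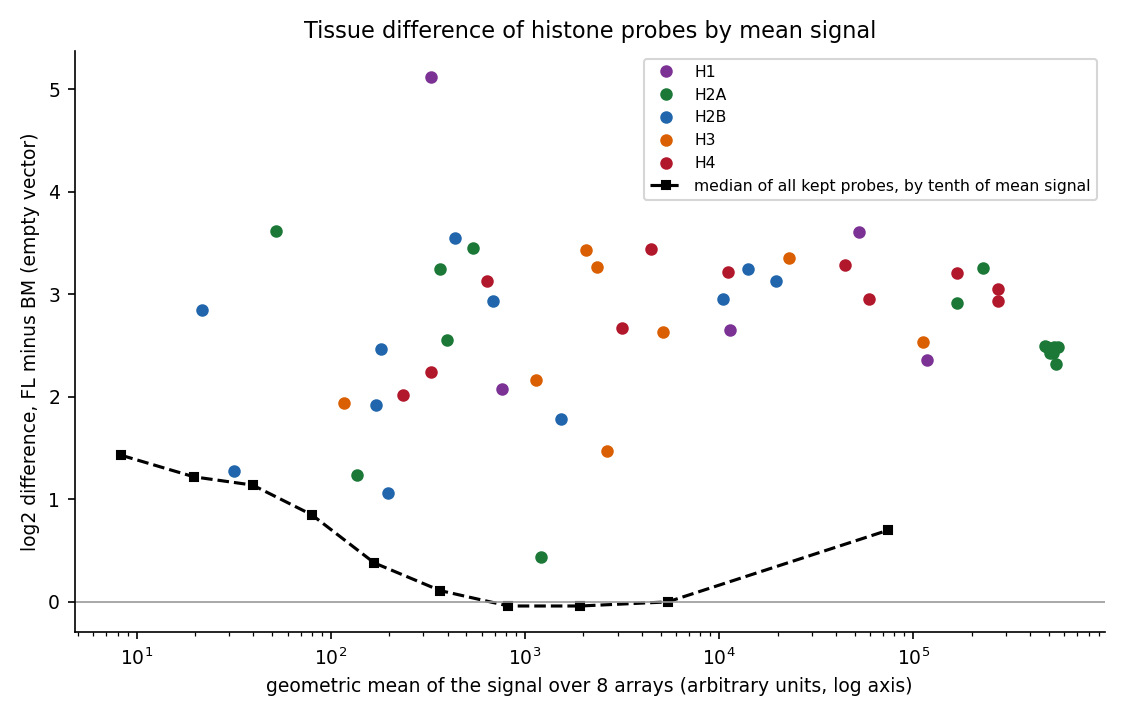
log2 difference of FL minus BM with empty vector (75th percentile scaling) of each kept histone probe against its geometric mean signal over the 8 arrays, by class, with the median of all kept probes in each decile of mean signal as squares. On this scaling nearly all histone probes lie above the square of their own decile, and Hist3h2a is the closest to its square among probes of medium signal.

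Probe sequence went along with the size of the difference only loosely. The 11 kept members with a GC content below 45% had a median scaled difference of 2.08, and the 29 with 50% or more had 2.67; with quantile scaling these were 1.77 and 1.80, and without scaling -0.40 and 0.19. Across the 50 members, GC content and the scaled difference had a Pearson correlation of 0.31 and a Spearman correlation of 0.23, and with quantile scaling -0.10 and -0.15, so the sign turned with the scaling. These points share arrays and, among near copies, RNA. The 4 probes with the common stem-loop had a median of 3.26, with a range of 2.17 to 3.45, against 2.66 over all members. The 4 with a poly(A) hexamer had 2.72. The 13 probes that list several transcripts had 2.94 and the 37 kept that list 1 had 2.65.

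Most genes of the wider pathway were not called higher in FL against BM. Genes that activate histone transcription had a median of -0.25, with 2 of 9 called higher and 3 lower, against the 39.2% and 19.7% of all probes. Npat, the histone locus activator, was at -6.33 ± 0.04 (SD, n = 2) in BM and -5.05 ± 0.03 in FL and did not pass (adjusted p = 0.0589). Casp8ap2, another component of the histone locus body, fell by 2.63 (adjusted p = 0.00557), and E2f3, a G1/S transcription factor, by 1.62 (adjusted p = 0.000772). The 2 called higher were Hinfp, by 0.68 (limma adjusted p = 0.00411), and E2f1, by 0.76 (adjusted p = 0.0144). Both stayed called higher with quantile scaling (0.63 and 0.76) and were -1.8 and -1.72 without scaling. Of genes that process, export or degrade histone mRNA, 5 of 19 were called higher and 9 lower, with a median of -0.42. Slbp, the stem-loop binding protein, was at 1.9 ± 0.06 in BM and 0.13 ± 0.60 in FL, a fall by 1.77 (limma adjusted p = 0.00415) that was 1.76 with quantile scaling. Snrpd3, a core protein of small nuclear particles, fell by 1.69 (adjusted p = 0.000968), and Eri1, an exonuclease that trims the histone stem-loop, by 0.89 (adjusted p = 0.00396). Zfp473, a zinc finger protein of the processing complex, was called higher by 0.74 (adjusted p = 0.00392) on this scale and was -1.75 without scaling.

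Histone chaperones had a median of -0.24, with 1 of 13 called higher and 4 lower. Nasp, which carries H3 and H4 and linker histones, fell by 1.58 (limma adjusted p = 0.000847), and Hat1, which acetylates new H4, by 1.66 (adjusted p = 0.00271). S phase genes had a median of -0.38, with 4 of 29 called higher and 12 lower, and mitosis genes one of -0.41, with 1 of 19 higher and 9 lower. Pcna, the replication clamp, fell by 0.93. With quantile scaling the medians of these 5 lists stayed below 0, between -0.56 and -0.26, and without scaling they lay between -2.90 and -2.72, each below the -2.01 of all probes. Every list was at 0 calls with Lin28b and with let-7b.

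**Figure D5:**
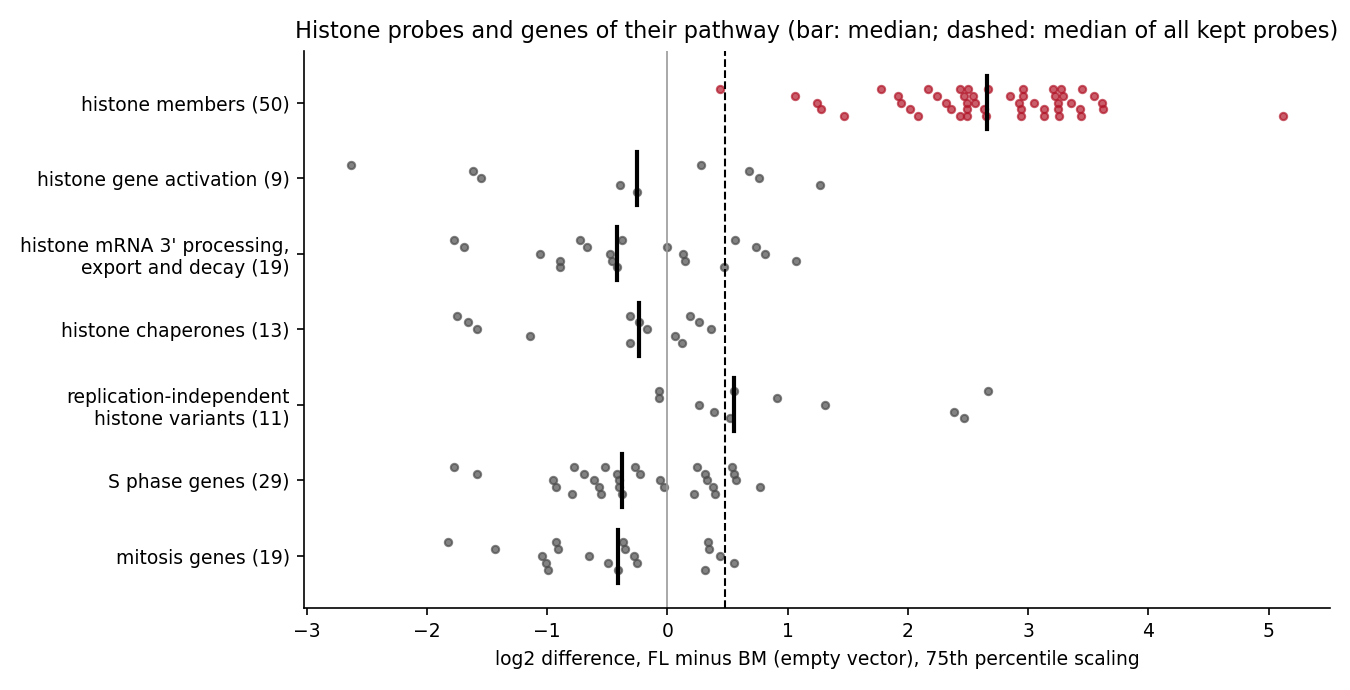
log2 difference of FL minus BM with empty vector (75th percentile scaling) of the 50 kept histone probes and of the genes of 6 lists, each point a probe, with a bar at each median and a dashed line at the median of all kept probes. The histone median of 2.66 lies to the right of the lists, whose medians run from -0.42 to 0.55; without scaling the lists run from -2.90 to -1.93 and the histone median is 0.18.

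Replication-independent variants were near the typical probe, with exceptions. Their median was 0.55, with 6 of 11 called higher and 0 lower, -0.08 with quantile scaling and -1.93 without scaling. H2afz, H2A.Z, was at 7.1 ± 0.4 (SD, n = 2) in BM and 7.65 ± 0.06 in FL, and H2afx, the DNA damage variant, at 5.39 ± 0.15 and 5.78 ± 0.24. Neither passed on this scale, and with quantile scaling H2afz was called lower (-0.82, adjusted p = 0.0207) while H2afx was -0.16 and not called. The 2 genes of H3.3 had 0.52 for H3f3a (adjusted p = 0.026) and -0.07 for H3f3b (adjusted p = 0.621), and with quantile scaling H3f3a was -0.17 and not called and H3f3b -0.79 and called lower (adjusted p = 0.00569). Those with differences of histone size were H1fx (2.67, adjusted p = 0.000607) and H1f0 (2.38, adjusted p = 0.000811), linker variants, and H2afj (2.47, adjusted p = 0.000862), an H2A variant. With quantile scaling the first pair had 1.99 and 1.68 while H2afj had 0.18, and without scaling H1fx had 0.19, H1f0 -0.10 and H2afj -0.02. The H2afj levels were 8.17 and 8.03 in BM empty vector and 10.26 and 10.87 in FL empty vector. Those of the saturated Hist1h2an probe were 8.18 and 7.94, and 10.3 and 10.8. H2afj thus read at the height of the scanner's limit, and its difference is not read further.

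Some markers of cell types differed between the tissues too, where 39.2% of all probes were called higher in FL and 19.7% lower. The log2 summed level of 14 myeloid markers was 3.20 to 3.27 in BM empty vector and 4.85 to 5.94 in FL empty vector, with 4 of 11 kept called higher and 1 lower, and Ly6g not well above background on any array. That of 10 hepatocyte markers was -0.22 to 0.04 in BM and 1.74 to 2.41 in FL, with 3 of 4 kept called higher, while Alb, Ttr, Apoa1 and Fgb were not well above background on any array. That of 12 erythroid markers was 1.85 to 1.88 in BM and 1.70 to 1.93 in FL, ranges that overlapped. However, 3 of 6 kept were called higher (Hba-a1 by 2.17, Hba-a2 by 2.85 and Slc4a1 by 2.33) and 0 lower. Of the 12 erythroid markers, 5 were not well above background on any array, Alas2 and Ahsp among them. The summed level of stromal markers was 3.73 to 4.14 in FL and 4.86 to 5.01 in BM, with 8 of 16 kept called lower and 3 higher (Dcn, Bgn and Pdgfrb). Pro-B markers were at 9.94 to 10.33 in FL and 8.96 to 9.05 in BM, with 8 of 14 kept called higher and 0 lower. Without scaling the median difference of kept markers was -0.62 (myeloid), 0.47 (hepatocyte), -1.1 (erythroid), -3.56 (stromal) and -1.77 (pro-B), against -2.01 over all probes. With quantile scaling these medians were 1.6, 2.53, 0.42, -1.13 and -0.01 in the same order, and 0 over all probes. Of the pro-B markers 5 were then called higher and 2 lower, and of the erythroid markers 1 higher and 1 lower. The part of these markers' cells in the histone difference was not tested.

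The promoters of the members shared short motifs. RefSeq promoters (GRCm38.p6, a later build than that of the probes) of 250 bases before to 50 bases after the start were given for 41 of the 47 genes, as 42 promoters. The octamer ATTTGCAT, on either strand, was in 13 of them (31.0%), against 1.74% of 32851 promoters of the same length. All were promoters of H2A or H2B genes: 7 of 14 H2A promoters and 6 of 9 H2B promoters, and 0 of those of H1, H3 and H4. The windows of Hist1h2ae and Hist1h2bg overlap on opposite strands, as do those of Hist1h2aa and Hist1h2ba. The same octamer can thus count for both genes of a pair, and the 13 promoters do not hold 13 separate octamers. CCAAT, on either strand, was in 37 (88.1% against 37.4%), and TATAAA, on either strand, in 25 (59.5% against 13.6%). The last 150 bases before the start are printed for 2 H2B genes that hold the octamer, with matches to any of the 3 motifs in capitals.
Hist1h2bb: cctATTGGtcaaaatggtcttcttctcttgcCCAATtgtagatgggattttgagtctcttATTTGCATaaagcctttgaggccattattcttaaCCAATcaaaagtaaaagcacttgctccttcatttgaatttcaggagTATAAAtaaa
Hist1h2bg: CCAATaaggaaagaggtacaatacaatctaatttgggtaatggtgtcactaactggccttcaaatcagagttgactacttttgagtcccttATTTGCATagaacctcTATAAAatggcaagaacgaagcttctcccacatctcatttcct
They lie at chr13:23746584-23746733 and chr13:23571250-23571399 of GRCm38.p6, both on the plus strand. The 13 probes of genes with the octamer had a median tissue difference of 2.56 (0.44 to 3.62), and the 30 of genes with a promoter but no octamer 2.80 (1.28 to 5.12), so the ranges overlapped.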

How the data were processed

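Total RNA (100 ng) was amplified and labelled with Cy3, per the labels, which name no primer (oligo-dT or other). The primer bears on how replication-dependent histone mRNAs, which lack poly(A) tails, are measured, and its part in the histone signals was not tested. Deposited scanner files give each spot's processed intensity, background-corrected with Feature Extraction 9.5.3.1 per the file headers, and probe positions in mm9. For the log2 table that the authors also deposited, no source names the normalization. Its column medians were 7.22 on BM and 6.16 on FL arrays, so it was used within a tissue only.

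Levels are log2 ratios of a spot's processed signal to the 75th percentile of its array, taken over 43020 spots (1377 control spots left out). Copies of a probe were averaged, 354 probes with an outlier flag were left out, and a probe was kept if well above background on at least 2 of the 8 arrays. limma 3.58.1 in R 4.3.3 fitted 1 mean per group over the 28187 kept probes, with Benjamini-Hochberg adjustment over all of them. Its errors are standard errors. Python 3.11.15 read sequences and drew figures. The fit was tested on simulated data. The members and gene lists were chosen with earlier results of these data known. Genes named are the brightest members of each class, the largest and smallest differences, testis-type genes and those of the Hist3 and Hist4 loci, genes with near-identical probes, and up to 4 of each list by smallest p with Slbp, Npat and the main variants. Members were matched by accession to RefSeq for 50 of 51 probes. The number of arrays limits the precision. Alternatives covered the background correction (normexp), scaling, filter, probe choice, variance model, arrays fitted, replicate block, the authors' table and each array left out. A further pair, no scaling and no saturated probes, were chosen after the data were seen.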

Additional observations from a re-analysis of the deposited data

How the results depend on the processing

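Every alternative kept the counts with Lin28b and with let-7b at 0. In FL against BM the count of members called was 36 to 49 under the alternatives, except without scaling between arrays, where it was 17 (13 higher, 4 lower) with a median difference of 0.18, because the dimmer FL arrays were then not brought to the level of the BM arrays. With each array left out in turn, the count was 41 to 48 and the median 2.19 to 3.36. The median with Lin28b was -0.21 to -0.09 and with let-7b -0.82 to 0.14, above 0 without FL empty vector replicate 2. Same-numbered arrays deviated together in FL (correlation 0.514), where the number is the slide, and not in BM (-0.061). With the replicate block the counts stayed at 0 and the medians at -0.14 and -0.34. The authors' table gave medians of -0.09 and -0.11, and normexp gave -0.71 with let-7b. In FL against BM without scaling, 17 members were below 0, among them Hist1h1b (-0.13), Hist1h1c (-0.40), Hist1h2ae (-1.25), Hist3h2a (-2.05), Hist2h2be (-1.42), Hist1h2bc (-0.70), Hist1h2bp (-1.20), Hist1h3g (-1.02), Hist1h4h (-0.46), Hist1h2be (-0.56), Hist2h3c2 (-0.54), Hist1h3a (-0.31) and 1 Hist2h4 probe (-0.25). Hist1h2ah, saturated on 6 of 8 arrays, read -0.17 there and -0.02 with quantile scaling, signs that have no meaning. Values with no call also turned. With Lin28b, Hist3h2bb gave -0.04 with normexp, and with an array left out it ran from -0.01 to 0.52, Hist1h2ab from -0.21 to 0.58 and Hist1h3c from -0.11 to 0.43. With let-7b, Hist2h2be ran from -0.10 to 0.52 and Hist1h1e from -1.16 to 0.05, and Hist2h2be gave -0.03 without FL let-7b replicate 1. The cause of these was not tested. Hist3h2a lost its call with each of 6 arrays left out, and Hist2h2be with 3. Saturated H2A spots and dim FL arrays limit what the signals can show.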
